A study of Mus musculus with 32 samples.

Results

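Chronic constriction injury (CCI) of the sciatic nerve, in which loose ligatures around the nerve give a lasting neuropathic pain state, was compared with a sham operation in the medulla of mice lacking Cckbr (here KO mice). Cckbr encodes the cholecystokinin B receptor. The comparison took the 4 medulla arrays of KO mice with CCI against the 4 medulla arrays of KO mice with a sham operation, 8 of the 32 arrays of the study, chosen by their labels alone. All 22626 probe sets of the expression array that are not AFFX controls were included, of 22690 in all. Both groups lack Cckbr, so the receptor's absence is common to the injured and the sham mice. The other 24 arrays hold medulla of control mice with CCI or sham and midbrain of both genotypes, 4 arrays per group, and the design gives each group 4 mice. Age, sex, strain, the way the null allele was made and the time after the operation are not given in the sources used here.

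The medulla holds the rostral ventromedial nuclei that send axons to the dorsal horn and either damp or facilitate spinal pain signals. Opioid peptides and their receptors, serotonin, noradrenaline, GABA and glycine are the main transmitters of this descending system. Cholecystokinin acting on its B receptor in these nuclei is known to oppose opioid analgesia and to promote facilitation after nerve injury. The cell bodies of the injured sciatic axons lie in the spinal cord and the dorsal root ganglia, outside the medulla, which receives ascending fibres from sensory neurons and from the dorsal horn.

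Each value is a deposited intensity on a linear, background-subtracted scale, with 1 value per probe set and array. Array medians in the 8 KO arrays ran from 91.6 to 99.6. Differences are log2 differences, KO CCI minus KO sham, of log2(intensity + 16) after quantile normalization, a scale that understates the change of dim genes. The p-values come from a moderated test (limma, fitted to the 16 medulla arrays), and an adjusted p is Benjamini and Hochberg's over all 22626 probe sets, with 0.05 as the threshold. The number of arrays, 4 a group, limits the precision. That the arrays of a group come from separate mice rests on the design text. Bulk tissue cannot tell fewer cells of a type from less RNA per cell.

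The tissue carried the markers of hindbrain. Hoxc4, a positional gene of the caudal hindbrain and spinal cord, read 125 to 237 in KO sham and 174 to 298 in KO CCI arrays. Snap25, a neuronal synaptic protein, read 4773 to 6372 over the 8 arrays, and Mbp, a myelin protein, 7486 to 8312. Cckbr was at background in all 8, at 14.7, 5.93, 24.1 and 10.7 in KO sham and 7.44, 13.8, 11.1 and 10.8 in KO CCI mice on the brighter of its probe sets. These values overlapped and their log2 difference was -0.09 (95% interval -0.43 to 0.25).

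A pair of arrays stood apart from their groups. KO sham 3 lay at 60.6 on the first principal component of the 16 medulla arrays, which held 19.5% of the variance, while the other 15 lay between -9.7 and 2.3. It had 4.58% of its values at or below 0, against 1.71% to 2.32% in the others, and it carried high levels of cerebellar genes. KO CCI 1 had low levels of choroid plexus genes. Where leaving out either array changed the printed difference of a named or list gene by over 1.5 times or turned its sign, for differences of at least 0.2 in size, the value without it is given too.

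No gene passed the threshold after CCI in KO medulla. Limma called 0 of 22626 probe sets (0%), with 959 (4.24%) at an unadjusted p under 0.05, of which 475 were higher (2.1%) and 484 lower (2.14%). Chance alone gives about 1131 at that unadjusted p. The smallest adjusted p was 0.0893, for Dmp1, and the next smallest was 0.993. Without KO sham 3 the count was 0, with 900 (3.98%) at an unadjusted p under 0.05, without KO CCI 1 it was 0 with 723 (3.2%), and without both it was 0 with 691 (3.05%). Leaving out each of the 16 medulla arrays in turn gave 687 to 1704 at that unadjusted p, the most without KO sham 2. Within each of the array codes in the labels that hold both KO groups, with 2 arrays a group, it was 1713 and 1485, with 0 past the threshold.

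The arrays bounded the size of most differences on the log2 scale used here, which understates the change of dim genes. Over all probe sets the standard error (SE) had a median of 0.14 on the log2 scale. The 95% interval lay within a 1.5-fold change in either direction for 77.2% of probe sets and within 2-fold for 97.3%. The 1.5-fold bound held for 89.2% of probe sets with a mean intensity of at least 50 and for 54.3% of the dimmer ones. For the other probe sets the interval reached past 1.5-fold in at least 1 direction. The share of all probe sets within 1.5-fold depended on the constant added before the log2. It was 57.8% with 1 added and 98% with 64 added, so it is no bound on fold changes of the intensities themselves. The share was 66.1% and 45.1% within the array codes, and 69.1% to 77.7% when each array was left out.

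**Figure D1:**
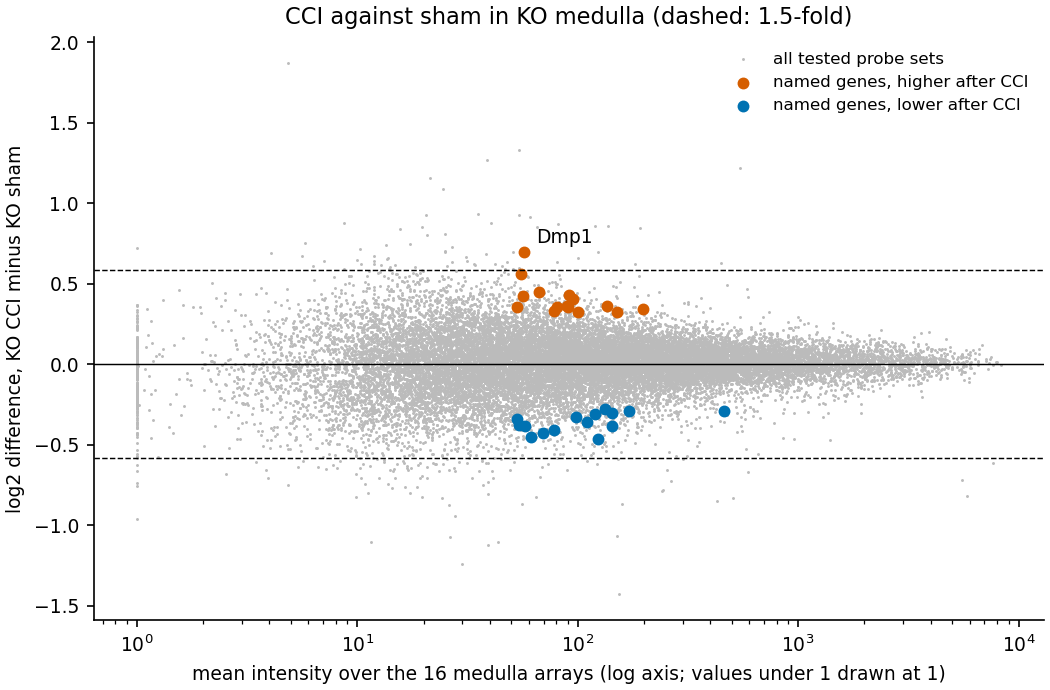
Log2 difference between KO CCI and KO sham medulla against mean intensity over the 16 medulla arrays (log axis), with 1 point per probe set. Coloured points are the 30 genes named in the text, none past the threshold, and dashed lines mark a 1.5-fold change. The cloud narrows as intensity increases, and the named genes lie at its edge between mean intensities of 53.1 and 459.6.

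Only 13 probe sets (0.0575%) differed by more than 2-fold, and in 12 of them the groups overlapped. They included both probe sets of Gabra6, the GABA-A receptor subunit of cerebellar granule cells, at -1.43 and -1.10 (-0.52 and -0.20 without KO sham 3). Tac2, the precursor of neurokinin B, read 198, 204, 366 and 72.3 in KO sham and 154, 50.3, 81.4 and 60.6 in KO CCI mice. Its log2 difference was -1.07 (SE 0.65, adjusted p = 0.993 by limma), and its groups overlapped because KO sham 4 lay below KO CCI 1 and KO CCI 3. Tac2 also varied widely within the control groups, from 29.6 to 294.7 after sham and from 31.4 to 282.2 after CCI. The single probe set without overlap was dim: Rbp2, a retinol-binding protein, read 20.04, 21.97, -3.05 and 9.93 in KO sham against 39.5, 39.5, 30.5 and 57.1 in KO CCI mice.

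Over all probe sets, 410 (1.81%) had no overlap of normalized values between the 4 KO CCI and the 4 KO sham arrays, 220 higher after CCI (0.972%) and 190 lower (0.84%). The genes named next were taken from these. They had no overlap on that normalized scale, an unadjusted p under 0.01 and a mean intensity of at least 50, and the 15 of largest difference were taken in each direction out of 28 higher and 16 lower genes (0.133% and 0.0751% of probe sets met these conditions). On the deposited intensities given here, 28 of the 30 had no overlap, Ctse overlapped (KO sham 1 at 59.06 and KO CCI 1 at 58.99) and Map4k4 had a tie (KO sham 4 and KO CCI 2 at 72.11). None of the 30 passed, and their values describe the edge of the distribution.

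Dmp1, dentin matrix protein 1, an acidic phosphoprotein of mineralised matrix, came closest to the threshold. It read 38.6, 42.1, 25.0 and 43.99 in KO sham mice and 71.2, 70.0, 59.3 and 74.1 in KO CCI mice. All 4 KO CCI arrays lay above all 4 KO sham arrays, and KO sham 3 was the lowest. The log2 difference was 0.70 (SE 0.10, 95% interval 0.49 to 0.91, adjusted p = 0.0893 by limma). Control sham mice read 55.02 to 63.7 and control CCI mice 59.5 to 67.7, so both control groups lay above every KO sham array, and the difference in control mice was 0.05 (SE 0.10). In midbrain of KO mice Dmp1 read 20.7 to 28.2 after sham and 19.7 to 35.8 after CCI. Without KO sham 3 the medulla difference was 0.61 (adjusted p = 0.103). Dmp1 did pass when the dimmest 33.3% of probe sets were left out (adjusted p = 0.0301) and when 1 probe set per gene was kept (adjusted p = 0.0419), both of which test fewer probe sets. It passed in no other alternative. With an intensity trend and robust variance its adjusted p by limma was 0.334. With only the KO sham and KO CCI arrays fitted, so that control arrays lent no estimate of the spread, it was 0.999.

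The other 14 genes with higher values after CCI had log2 differences of 0.32 to 0.56. Ap5m1, a subunit of the AP-5 adaptor complex of endosomes, read 31.9, 55.6, 29.9 and 44.6 in KO sham and 59.4, 67.0, 67.6 and 64.1 in KO CCI mice (0.56, SE 0.14). Magel2, an imprinted regulator of ubiquitin ligases, read 88.5, 87.3, 68.2 and 61.9 against 119.6, 100.5, 106.8 and 99.4 (0.40, SE 0.12). In both genes the gap between the groups was small beside the spread within KO sham.

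Msn, which encodes moesin, a linker of actin to the membrane, read 52.1 to 94.9 in KO sham and 98.1 to 115 in KO CCI mice (0.43, SE 0.13). Ugcg, the enzyme that makes glucosylceramide, read 91.9 to 132 against 137 to 169.7 (0.36, SE 0.11). Mal2, a membrane protein of transcytosis, read 181, 183, 130.2 and 171 against 219, 213, 236 and 215 (0.34, SE 0.10), where KO sham 3 lay far below the other KO sham arrays.

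Map4k4, a kinase upstream of JNK, differed by 0.45 (SE 0.14), Dusp15, a phosphatase of oligodendrocytes, by 0.36 (SE 0.12), and Gng4, a G protein gamma subunit, by 0.33 (SE 0.10). Sox18, a transcription factor of endothelial cells, differed by 0.35 (SE 0.12), and Runx1t1, a transcriptional corepressor, by 0.33 (SE 0.11). Serpinf1, which encodes the secreted factor PEDF, differed by 0.36 (SE 0.11). The remaining 4 were Ctse, which encodes the protease cathepsin E (0.42, and 0.27 without KO sham 3), Slc37a3, of a family of sugar phosphate transporters (0.36), the cochaperone gene Dnajc14 (0.32, and 0.21 without KO sham 3), and Dmp1 itself. KO sham 3 was the lowest KO sham array for 9 of the 15.

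The 15 genes with lower values after CCI differed by -0.28 to -0.47. Prkd2, protein kinase D2, read 130, 157, 170.5 and 136 in KO sham and 90.1, 92.0, 121 and 115 in KO CCI mice (-0.47, SE 0.14). Eif2ak2, the RNA-activated kinase PKR that interferon induces, read 95.8, 81.5, 92.2 and 107 against 74.8, 65.5, 67.7 and 60.4 (-0.41, SE 0.13). In both genes the 4 KO CCI arrays were the low ones.

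Ifngr1, the ligand-binding chain of the interferon gamma receptor, read 146, 137, 156 and 135 in KO sham and 125, 129, 106 and 111 in KO CCI mice (-0.28, SE 0.09). Lgals3bp, a secreted galectin-binding protein, read 171, 156, 155 and 133 against 114, 119.9, 131 and 129 (-0.30, SE 0.09). Icos, a costimulatory receptor of T cells, read 64.7 to 84.2 against 40.1 to 54.5 (-0.45, SE 0.15). Apoc4, an apolipoprotein gene, read 55.1 to 72.8 against 39.4 to 50.8 (-0.38, SE 0.11).

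Tmem144, a membrane protein, differed by -0.43 (SE 0.14), with KO CCI 3 at 31.5 far below the other KO CCI arrays at 59.3 to 62.7. Tbc1d1, which acts on Rab proteins in glucose uptake, differed by -0.31 (SE 0.09), and the transcription factor Foxk1 by -0.39 (SE 0.13). Prss2, which encodes a trypsin, differed by -0.38 (SE 0.10), and Med17, a Mediator subunit, by -0.34 (SE 0.11). Mier2 (-0.36), Tmem209 (-0.33), Ppp1r18, an actin-binding regulator of protein phosphatase 1 (-0.29), and BC004004 (-0.29) completed the group.

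Other probe sets of the same genes gave a check on these values that the naming rule did not use. Of the 30 genes 21 had at least 1 other probe set, 36 in all, and 3 of the 36 had an unadjusted p under 0.05. Among those 3, the other probe set of Prss2 went the same way (-0.46), while those of Ctse (-0.41) and Prkd2 (0.36) went the opposite way. For 14 genes another probe set was brighter than the named one. The 17 brighter probe sets had a median absolute difference of 0.08, against 0.36 for the named probe sets of the same 14 genes. The named ones were chosen for a large difference, so a smaller median on the others was to be foreseen and is no test of them. Map4k4 showed the widest gap in brightness, with a probe set of mean intensity 479.7 that differed by 0.01 where the named one differed by 0.45.

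Control mice gave a separate measurement of the same operation. CCI in control medulla called 0 of 22626 probe sets (0%), with 633 (2.8%) at an unadjusted p under 0.05. Of the 30 named genes 17 had the same sign there, 9 of the 15 higher and 8 of the 15 lower, beside 54% of all probe sets. None of the 30 reached an unadjusted p under 0.05 in control medulla. The genotype by CCI interaction called 0 probe sets (0%) with 604 (2.67%) at an unadjusted p under 0.05. It included 17 of the 30, but it uses the same KO arrays that chose them, so that count tells nothing further. In 18 of the 30 the KO sham mean was farther from the mean of the control groups than the KO CCI mean was. The same KO arrays chose the 30 and the share over all probe sets was not computed, so this count tells nothing further either.

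**Figure D2:**
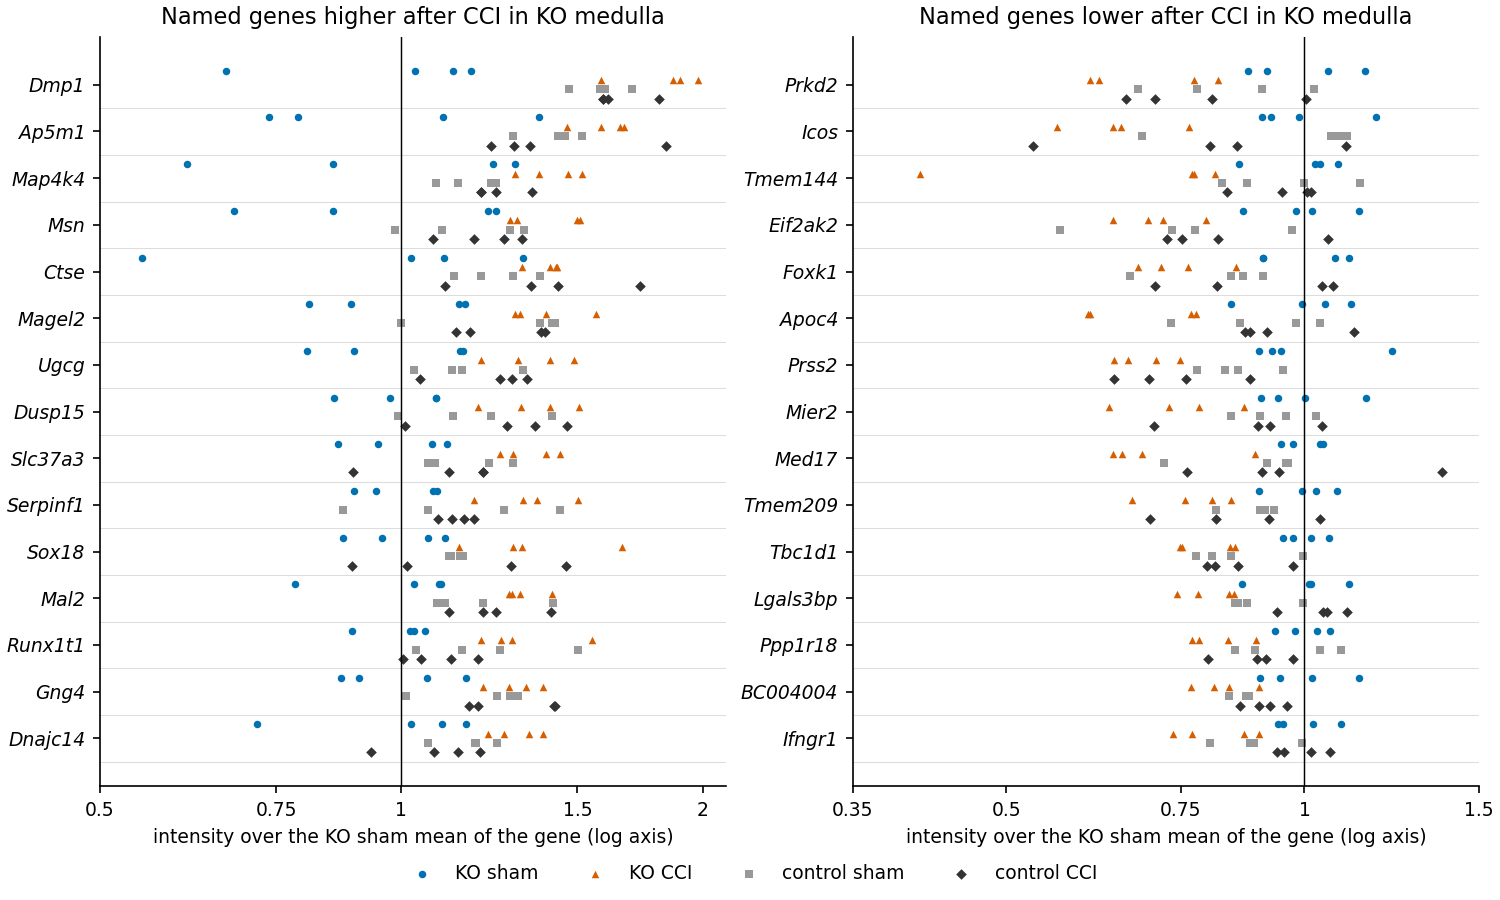
Intensity of the 30 named genes in each medulla array, divided by the gene's KO sham mean (log axis), with 4 points per group. KO sham and KO CCI points are separate in 28 rows, since the rule required no overlap of normalized values; they overlap for Ctse and tie for Map4k4. Control sham and control CCI points overlap each other. For Dmp1, the top row of the left panel, both control groups lie above every KO sham array.

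The midbrain of KO mice gave the same operation in another region. By the design each mouse gave both regions, so the values stand side by side and are no independent check. For KO sham 3 and 4 the numbers in the titles and in the array names of the regions do not match, so which arrays share a mouse is uncertain there. CCI in KO midbrain called 0 probe sets (0%) with 1863 (8.23%) at an unadjusted p under 0.05 and a smallest adjusted p of 0.601. Ugcg differed there by 0.53, Serpinf1 by 0.29, Prss2 by -0.25 and Ifngr1 by -0.21, the 4 of the 30 named genes with an unadjusted p under 0.05 in midbrain. Ugcg read 123.3, 42.3, 140.6 and 103.9 in KO sham and 156.1, 155.2, 154.5 and 126.7 in KO CCI midbrain. Its groups overlapped, and KO sham 2 was far below the rest. The differences of these 4 genes without single midbrain arrays were not examined. Other probe sets of these genes did not all go the same way in midbrain. Brighter ones of Ugcg and Serpinf1 differed by -0.08 and -0.21, and a dimmer one of Ugcg by 0.32. Those of Prss2 ran from -0.045 to 0.407.

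Genes of known roles in pain circuits and injury were read from 29 lists covering 600 measured genes, each on its brightest probe set. None passed (0%). At an unadjusted p under 0.05, 8 were higher (1.33%) and 8 lower (1.33%), beside 1.9% higher and 2.2% lower over 12393 genes. The 95% interval lay within 1.5-fold for 470 of the 600 (78.3%), beside 78.7% of all genes. The median log2 difference lay between -0.14 and 0.15 in 27 of the lists, beside 0.00 over all genes. The other lists were the cerebellar and choroid plexus genes.

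No gene of the cholecystokinin system differed past the threshold. Cck, the peptide precursor, read 472, 399.9, 469.5 and 331 in KO sham and 439, 365, 462 and 375 in KO CCI mice. The groups overlapped fully, with a log2 difference of -0.05 (95% interval -0.43 to 0.33). Cckar, the A receptor, was near background at 16.2 to 20.6 in KO sham and 20.8 to 24.2 in KO CCI mice (0.18, 95% interval -0.12 to 0.47).

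Opioid genes showed no difference past the threshold. Of 9 measured members 5 were higher and 4 lower, beside 51.2% higher over all genes, with a median of 0.04 and 0 at an unadjusted p under 0.05. Penk, the enkephalin precursor, read 771, 779, 862 and 862 in KO sham and 825, 810.2, 993 and 887 in KO CCI mice (0.07, 95% interval -0.22 to 0.37). Oprk1, the kappa receptor, read 69.5, 65.2, 29.3 and 53.4 against 80.3, 63.98, 61.1 and 64.2 (0.29, SE 0.16), and without KO sham 3, its lowest array, the difference was 0.12. Pdyn, the dynorphin precursor, and Oprm1, the mu receptor, were dim, at -18.4 to 19.6 against 5.97 to 31.6 and at 19.2 to 38.8 against 12.9 to 33.1, and their intervals were wide (-0.21 to 1.06 and -0.63 to 0.37). The Pdyn difference was 0.43, and 0.25 without KO sham 3 or 0.23 without KO CCI 1.

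Among 22 non-opioid neuropeptide genes 11 were higher and 11 lower, with a median of 0.02. Cartpt, the CART peptide precursor, read 163, 156, 89.8 and 155 in KO sham and 170.3, 158, 283 and 225 in KO CCI mice. KO sham 3 was the low array and KO CCI 3 the high one, and the groups overlapped. Its difference was 0.48 (SE 0.19, adjusted p = 0.993 by limma), and 0.31 without KO sham 3. Gal, the galanin precursor, which injured sensory neurons induce, read 145, 139, 164 and 103 against 199.7, 144, 197 and 169.5 (0.30, SE 0.18). Tac1, the substance P precursor, differed by -0.08 (95% interval -0.29 to 0.13).

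Monoamine genes had a median difference of 0.07, with 9 of 15 higher. Th, the rate-limiting enzyme of catecholamine synthesis, read 63.99, 80.9, 45.7 and 51.4 in KO sham and 97.1, 109, 60.9 and 98.4 in KO CCI mice. KO CCI 3 lay among the KO sham values, and the other KO CCI arrays lay above every KO sham array. The difference was 0.50 (SE 0.19, adjusted p = 0.993 by limma) and 0.43 without KO sham 3. Dbh, which makes noradrenaline from dopamine, read 120.1, 128, 35.3 and 138 against 121, 149, 105 and 157 (0.38, SE 0.29), and its difference was 0.02 without KO sham 3. Ddc, the decarboxylase of serotonin and catecholamine synthesis, differed by 0.24 (SE 0.13), and Slc6a4, the serotonin transporter, by 0.07 (SE 0.22). Htr3a, a serotonin-gated channel, read 62.8, 39.3, 69.3 and 61.4 against 39.6, 43.4, 41.9 and 35.3 (-0.36, SE 0.14), with KO sham 2 among the KO CCI values.

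Fast transmission was measured most tightly where the genes were bright. Slc17a6, the vesicular glutamate transporter VGLUT2, read 1374, 1549, 1535 and 1386 in KO sham and 1572, 1594, 1643 and 1470 in KO CCI mice (0.08, 95% interval -0.08 to 0.25). Gad1, a GABA-synthesising enzyme, read 1129 to 1510 against 1115 to 1400 (0.01, 95% interval -0.19 to 0.20). Slc6a5, the glycine transporter GlyT2, was dim, at 38.2, 18.8, 23.9 and 27.9 against 13.2, 23.9, 11.6 and 20.2 (-0.35, SE 0.17). Among glutamate genes, kainate receptor subunits had the largest differences. Grik1 read 61.8, 65.3, 48.1 and 75.7 in KO sham against 87.1, 77.7, 82.3 and 78.1 in KO CCI mice, with no overlap (0.32, SE 0.10, adjusted p = 0.993 by limma), and Grik2 differed by 0.51 (SE 0.23) with overlap.

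Immediate early genes, which neurons switch on within minutes of activity, were lower in 18 of 28, with a median of -0.06 and 0 at an unadjusted p under 0.05. Fos read 136, 243, 163 and 172 in KO sham and 187, 139, 225 and 149 in KO CCI mice. The groups interleaved (-0.06, 95% interval -0.60 to 0.48), an interval that does not exclude 1.5-fold. Nerve injury genes had a median of 0.03, and 27 of 30 had an interval within 1.5-fold. Atf3, the marker of injured neurons, read 52.1, 58.7, 36.3 and 50.7 against 31.3, 44.7, 50.7 and 52.0 (-0.08, SE 0.12). Bdnf, a growth factor of pain plasticity, differed by 0.10 (SE 0.18), and Socs3, a feedback inhibitor of cytokine signalling, by -0.24 (SE 0.11). Fkbp5, a glucocorticoid-induced cochaperone, read 103, 111, 76.8 and 100.5 against 133, 115, 126 and 118, without overlap (0.28, SE 0.09, adjusted p = 0.993 by limma).

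Glial markers lay close to 0. Microglia and macrophage markers had a median of -0.01, with 10 of 23 higher and 20 of 23 intervals within 1.5-fold. Aif1, which encodes the microglial protein Iba1, read 42.9, 57.9, 51.1 and 50.1 in KO sham and 59.1, 61.2, 55.1 and 42.8 in KO CCI mice (0.11, SE 0.16). Csf1r, the survival receptor of microglia, differed by -0.08 (95% interval -0.26 to 0.09), and the dimmer Itgam by -0.30 (95% interval -0.75 to 0.14), or -0.18 without KO CCI 1. Astrocyte markers had a median of 0.01, and Gfap, their intermediate filament, read 1139, 939, 1499 and 901 against 970.3, 752, 1122 and 983 (-0.22, 95% interval -0.73 to 0.28), or -0.08 without KO sham 3. All 17 oligodendrocyte and myelin genes had an interval within 1.5-fold, with a median of -0.03.

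Innate signalling genes had a median of -0.02, with 13 of 29 higher and 0 at an unadjusted p under 0.05. Tlr4, the endotoxin receptor, differed by -0.12, and Myd88, its adaptor, by -0.02. Interferon response and antigen presentation genes were lower in 21 of 28, with a median of -0.12, beside 0.00 over all genes. None reached an unadjusted p under 0.05 with all arrays. Without KO sham 3, 4 did, all lower, beside 228 lower of 12393 genes in that fit. After CCI 20 of the 28 were lower in control medulla and 19 of the 28 in KO midbrain. Of the 12393 genes 6044 were lower in KO medulla, 6248 in control medulla and 6904 in KO midbrain. Whether the same members were lower in each was not counted, and by the design the KO midbrain comes from the same mice. H2-Eb1, a class II antigen presentation gene, read 64.01, 55.7, 46.1 and 58.8 in KO sham and 30.5, 46.4, 46.0 and 48.6 in KO CCI mice (-0.27, SE 0.13), and its difference was -0.17 without KO CCI 1. The summed level of the list ran from 3413 to 4142 in KO sham and from 3506 to 3742 in KO CCI arrays, with KO sham 3 the lowest and the other KO sham arrays above all KO CCI arrays.

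**Figure D3:**
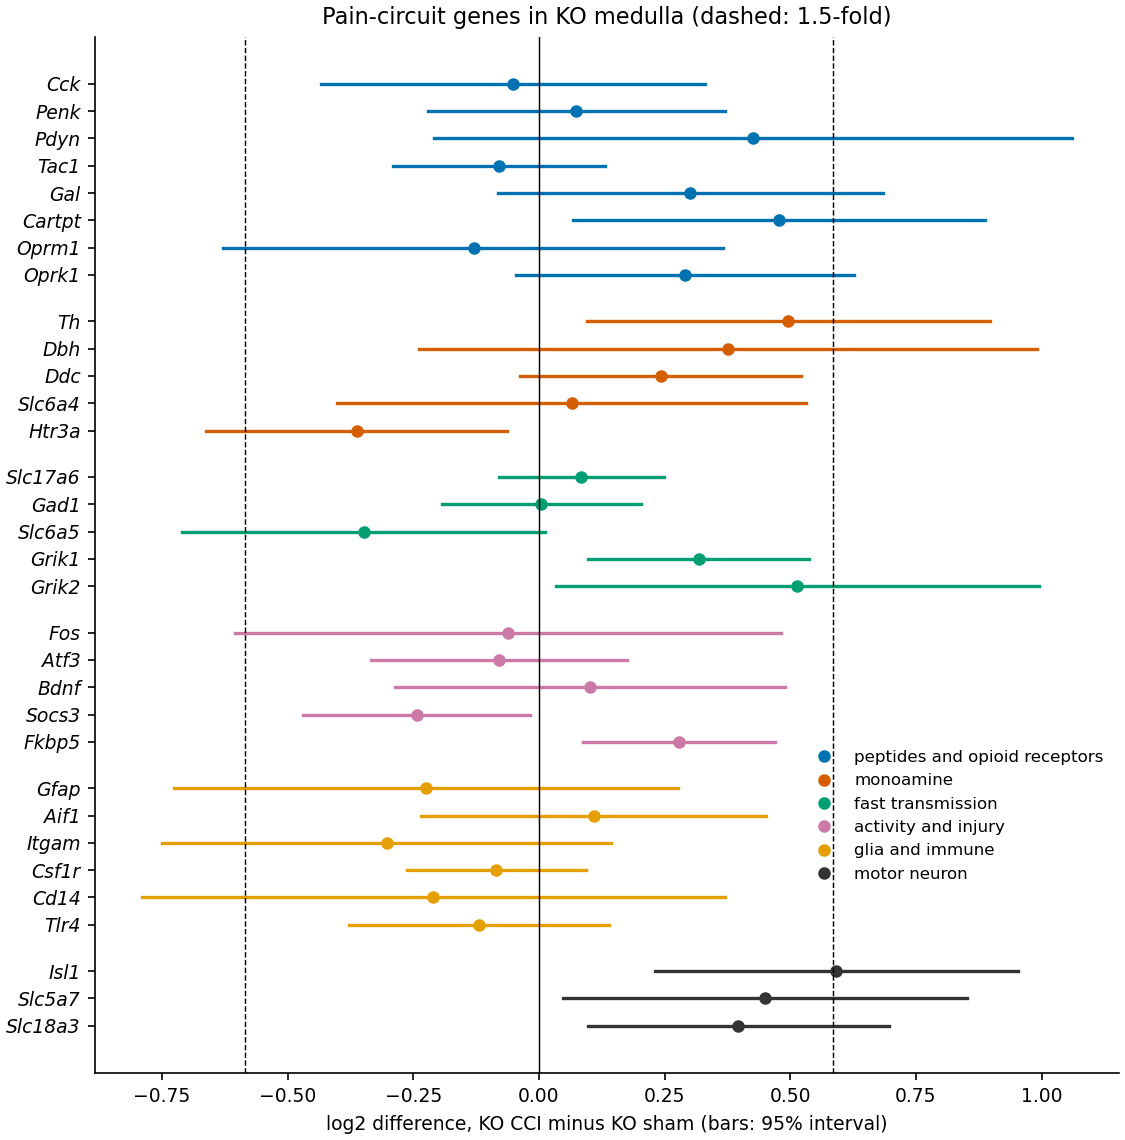
Log2 difference between KO CCI and KO sham medulla for 32 genes of pain circuits, injury, glia and motor neurons, with 95% moderated intervals (4 arrays a group). Dashed lines mark 1.5-fold. Intervals of bright genes such as Slc17a6 and Gad1 are narrow around 0, and none of the 32 passed the threshold.

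Brainstem motor neuron genes had the highest median of any list, 0.15, with 8 of 10 higher. Isl1, a transcription factor of motor neurons, read 29.4, 38.6, 18.0 and 56.5 in KO sham and 53.9, 57.4, 64.9 and 55.6 in KO CCI mice (0.59, SE 0.17, adjusted p = 0.993 by limma). Slc18a3, which loads acetylcholine into vesicles, read 85.3, 88.5, 69.7 and 130.7 against 132, 129, 118 and 127 (0.40, SE 0.14). Slc5a7, the choline transporter, read 53.9, 67.4, 28.4 and 43.2 against 87.2, 84.7, 51.9 and 56.5 (0.45, SE 0.19). KO sham 3 was the lowest KO sham array in all of these, and KO sham 4 reached the KO CCI values for Isl1 and Slc18a3. Without KO sham 3 the differences were 0.45, 0.31 and 0.31, and the list median was 0.13. These 3 of the 10 had an unadjusted p under 0.05 (2 without KO sham 3), beside 1.9% higher over all genes. KO sham 3 was the lowest KO sham array for 7 of the 10, and the part of that array's cerebellar genes in these differences was not tested.

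Genes of hindbrain position varied widely within each group. The summed level of 19 Hox and other hindbrain genes was 2913, 2648, 2639 and 1526 in KO sham and 2899, 2097, 2897 and 2255 in KO CCI arrays, with KO sham 4 the lowest of the 8. The list median was 0.05, with 12 of 19 genes higher, beside 51.2% of all genes. Hoxd8, a more caudally expressed gene, lay at the lower end of the list. It read 33.3, 27.8, 51.3 and 23.7 against 16.6, 16.3, 17.8 and 21.5 (-0.49, SE 0.21, adjusted p = 0.993 by limma). Its groups did not overlap, as in 1.81% of all probe sets, and its difference was -0.31 without KO sham 3. Meningeal and fibroblast genes were lower in 14 of 19, with a median of -0.14. That median was -0.17 without KO sham 3 and -0.06 without KO CCI 1. Their summed level was 8987, 9163, 7253 and 8109 in KO sham and 7187, 8230, 8191 and 8507 in KO CCI arrays. KO sham 3 had the lowest sum of the KO sham arrays, while Col1a2, a collagen chain, was highest there. Col1a2 read 310.4 in KO sham 3 and 154 to 204 in the other 7 arrays (-0.33, and -0.15 without KO sham 3).

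Cerebellar neuron genes were highest in KO sham 3 by their summed level. Their summed level was 9086, 8573, 16880 and 8941 in KO sham and 8473, 8275, 8665 and 9432 in KO CCI arrays. All 12 measured genes were highest in KO sham 3 among the KO sham arrays, and 10 of them were highest there among all 16 medulla arrays. Gabra6 read 113, 51.4, 1077 and 71.0 in KO sham, against 30.5 to 107 in KO CCI mice, and Neurod1, a transcription factor of granule cells, read 879 in KO sham 3 and 76.7 to 122 in the other 7. Cbln3, a granule cell secreted protein, read 225 there and 12.5 to 37.7 in the other 7 arrays. The list median was -0.48 with all arrays (11 of 12 lower), -0.16 without KO sham 3 (7 of 12 lower) and -0.11 without KO sham 3 and KO CCI 1 (9 of 12 lower).

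Choroid plexus genes were low in KO CCI 1. Ttr, the thyroxine carrier made by choroid plexus, read 9129, 8673, 6897 and 8941 in KO sham and 1485, 7998, 8695 and 8639 in KO CCI mice. The summed level of the 11 genes was 2017 in KO CCI 1, against 9189 to 10820 in the other KO CCI arrays and 7629 to 11660 in KO sham, and control sham 4 was as low at 1505. KO CCI 1 was the lowest KO CCI array for 10 of the 11. The list median was -0.48 with all arrays (10 of 11 lower), 0.00 without KO CCI 1 (5 of 11 lower), -0.70 without KO sham 3 and -0.42 without both (10 of 11 lower). The part of cerebellar and choroid plexus RNA in the differences of other genes was not tested. Of the 30 named genes, all chosen at an unadjusted p under 0.01, 10 met that limit without KO sham 3, 13 without KO CCI 1 and 5 without both. At an unadjusted p under 0.05 by limma the counts were 30, 30 and 27. Genes chosen at a limit lose calls when tested again on fewer arrays. The counts without each other array were not made, so these tell nothing about KO sham 3 and KO CCI 1 in particular.

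**Figure D4:**
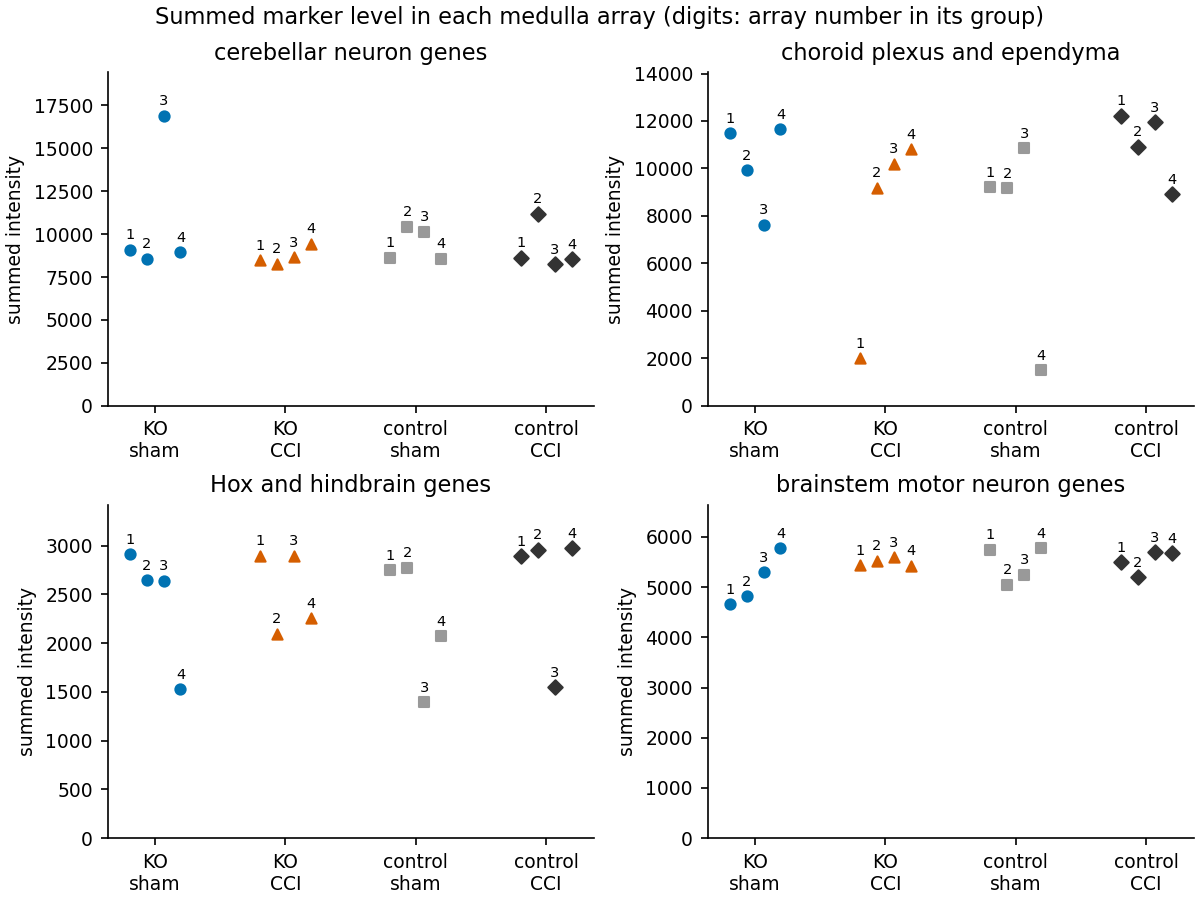
Summed intensity of 4 marker lists in each of the 16 medulla arrays, grouped by genotype and operation, with the array number beside each point. KO sham 3 is high for cerebellar genes, KO CCI 1 and control sham 4 are low for choroid plexus genes, and the Hox sum is low in arrays of 3 groups.

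Genes of basic cell function were narrowly bounded. All 67 oxidative phosphorylation genes and 39 of 40 cytosolic ribosomal protein genes had a 95% interval within 1.5-fold, with medians of 0.01 and 0.03. Pan-neuronal genes had a median of 0.05, with 23 of 24 intervals within 1.5-fold. Circadian clock genes had a median of 0.02 and 20 of 21 intervals within 1.5-fold, and ion channels studied in pain had a median of 0.01 and 23 of 26 such intervals (88.5%), beside 78.7% of all genes.

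**Figure D5:**
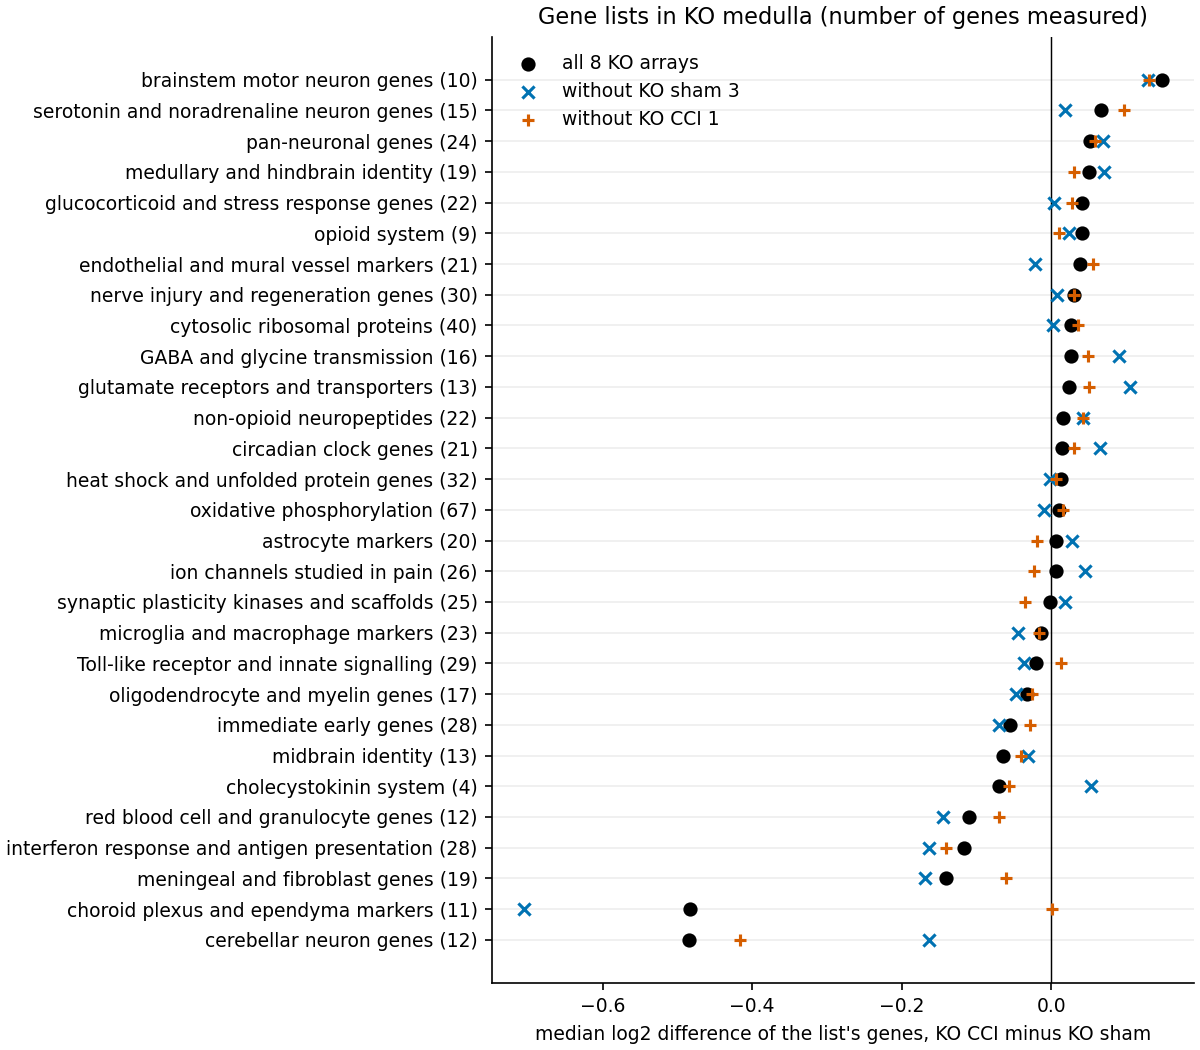
Median log2 difference between KO CCI and KO sham medulla for each of the 29 gene lists, with all 8 KO arrays and without KO sham 3 or KO CCI 1. Cerebellar and choroid plexus genes lie near -0.48 with all arrays and move when 1 array is left out, and the other lists lie between -0.14 and 0.15 with all arrays.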

How the data were processed

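Total RNA was extracted with Trizol and 4 ug of it was made into biotinylated cRNA, per the labels' protocols. The authors deposited 1 intensity per probe set and array, on a linear background-subtracted scale whose software and scaling are not given in the sources used here. Values under 0 were set to 0, 16 was added, the log2 was taken, and the 32 arrays were quantile normalized. Limma 3.58.1 in R 4.3.3 fitted 1 mean for each of the 4 groups of the 16 medulla arrays (the 16 midbrain arrays apart). Of 22626 probe sets, 20380 carried 1 gene symbol in the platform annotation, for 12393 genes, and 6 of the 30 named genes rest on probe sets of a type that can bind related transcripts. Per direction, up to 15 genes past the threshold were to be named, and free places went by size of difference to those with an unadjusted p under 0.01, a mean intensity of at least 50 and no overlap of normalized values. Each list's defining and most different genes were named too. For list genes the brightest probe set was used. Members and lists were chosen with earlier results of these data known. Alternatives were other scaling, pseudocounts, filters, variance models, blocks and the omission of each array.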

Additional observations from a re-analysis of the deposited data

Results flagged for a closer look

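Single arrays lay far from the other 3 of their group for 20 of 226 sets of 4 arrays examined. The sets were named and discussed genes and list levels, judged by Dixon's ratio of gap to range. Chance gives about 1 in 20 for independent sets picked without regard to their values. Many genes here were picked for large differences, and some also entered a list level, so the share is no test against chance. Of the flagged sets, those of KO sham 3 were Mal2 (ratio 0.863), Dbh (0.867), Cartpt (0.89), Neurod1 (0.865), Car8, a carbonic anhydrase-related protein of Purkinje cells (1628 against 308 to 369.9, ratio 0.886), Cbln3 (0.859), Zic1, a cerebellar and dorsal hindbrain transcription factor (2333 against 1390 to 1485, ratio 0.908), and Ttr (ratio 1). The mean log2 level of cerebellar genes (0.895) and of glucocorticoid and stress genes (0.864) stood apart in the same array. The ratios were taken on normalized values, where the other 3 KO sham arrays had equal values for Ttr. Its ratio of 1 therefore does not measure how far KO sham 3 lay. The deposited intensities were 6897 against 8673 to 9129, and the ratio was not tested on that scale.

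KO CCI 1 stood apart for Ttr (ratio 0.95), Oprk1 (0.926) and H2-Eb1 (0.923). KO CCI 4 stood apart for Ddc (273 against 374 to 382, ratio 0.967), Gabra6 (107 against 30.5 to 35.7, ratio 0.894), the mean log2 level of cerebellar genes (0.889) and that of microglia and macrophage markers (0.844). KO CCI 3 was low for Tmem144 (0.956). KO sham 1 was low for Tap1, an antigen peptide transporter (18.9 against 32.8 to 33.5, ratio 0.901), and KO sham 4 for the mean log2 level of Hox and hindbrain genes (0.835).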

How the results depend on the processing

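Over 30 alternatives the count of probe sets past the threshold for CCI in KO medulla was 0 in 26. It was 1 without the dimmest 33.3% of probe sets and 1 with 1 probe set per gene, Dmp1 in both, and leaving out each array in turn gave 0 to 1. The single calls were Nepro without KO sham 1 (adjusted p = 4.48e-04 by limma, 5 of the 8 KO values below 0) and Sp110 without KO sham 2 (0.0202, none of the 8 values above 22.3). The interaction count ran from 0 to 1 when each array was left out (1 without control CCI 3 and 1 without KO sham 1). The counts for control medulla and KO midbrain were 0 throughout. With all arrays CCI in KO medulla had 959 probe sets at an unadjusted p under 0.05, 687 to 1704 when each array was left out (1704 without KO sham 2), and 1713 and 1485 within the array codes, against 1131 by chance. The array codes in the labels that hold KO medulla arrays have 2 arrays of each KO medulla group each. With the code as a block and within each of those codes the count was 0.

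Equal array numbers in the titles did not settle whether the samples are paired. Deviations of same-numbered KO CCI and KO sham arrays correlated at 0.035 to 0.247, over 0.1 in 2 of 4 pairs. Of the 4 KO CCI arrays 2 correlated best with their own number. With the number as a replicate block the count was 0, with a smallest adjusted p of 0.139. Arrays chosen for omission together, KO sham 3 and KO CCI 1, and a code block of 2 levels were chosen after seeing the data, and both gave a count of 0. The 95% interval lay within 1.5-fold for 54.3% of probe sets with a mean intensity under 50, which limits what dim genes show.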

Other observations

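A probe set outside the naming rule, because the annotation pairs it with 3 genes, had one of the larger differences without overlap. It read 78.4, 117, 71.0 and 123 in KO sham medulla and 222, 243, 148 and 159 in KO CCI medulla (0.86, SE 0.20, adjusted p = 0.993 by limma). Control medulla read 69.8 to 122 after sham and 68.2 to 100.5 after CCI. In midbrain of KO mice it read 66.8 to 84.4 after sham and 118 to 199.5 after CCI (0.89, SE 0.26, adjusted p = 0.601), again without overlap. It was singled out after its values were seen, and by the design the regions come from the same mice.

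AF366264 had high or low values within groups. It read 329.6, 610.5, 198 and 181 in KO sham, 734, 704, 581 and 901 in KO CCI, 293, 931, 269 and 971 in control sham, and 152.5, 692, 960.2 and 178 in control CCI medulla. Its KO difference was 1.22 (SE 0.58, adjusted p = 0.993 by limma) and the KO groups overlapped. Pde6b, a phosphodiesterase of rod photoreceptors, read 54.97, 21.3, -32.7 and 10.7 in KO sham and 77.97, 50.1, 64.4 and 56.8 in KO CCI medulla (1.27, SE 0.32, adjusted p = 0.993 by limma), with KO sham 1 among the KO CCI values. Both were singled out after their values were seen.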
